A study of Mus musculus with 6 samples.

Results

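A set of 38 genes of sterol and fatty acid synthesis, with the regulators of the pathway and the genes of sterol efflux and transport, was examined in CD4+ T cells from the spleens of colitic mice. The members were chosen by gene symbol, with earlier results of these data known. Each of the 38 symbols matched 1 of the 54532 genes in the deposited tables. All mice were wild-type C57BL/6J animals that received dextran sulfate sodium (DSS) in the drinking water, which injures the colonic epithelium. Daily Akkermansia muciniphila, a bacterium that lives on intestinal mucin, was given to the Akk group (3 libraries), and phosphate-buffered saline (PBS) to the Ctrl group (3 libraries). The cell type entry names CD4+ T cells for every library, but the description of library 2 in each group names CD5+ and that of library 3 names CD6+ cells; the cell type entry was followed. The sources used here state neither the age and sex of the mice nor the dose of the bacterium nor how the cells were isolated.

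Cholesterol is built from acetyl-CoA through mevalonate, farnesyl diphosphate, squalene and lanosterol, and fatty acids are built from the same acetyl-CoA by carboxylation, chain synthesis, elongation and desaturation. The membrane-bound transcription factors SREBP1 and SREBP2 (genes Srebf1 and Srebf2) drive both routes: SCAP escorts them from the endoplasmic reticulum for cleavage when sterols are scarce, and the INSIG proteins hold them back when sterols are plentiful. Liver X receptors sense oxidised sterols and act the other way, raising the efflux transporters ABCA1 and ABCG1 and the ubiquitin ligase MYLIP, which limits sterol uptake. T cells are known to raise SREBP-driven lipid synthesis when they are activated and divide.

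The 6 libraries held 15032257 to 16677923 counts, on average 15286431 ± 302224 with Akk and 16101669 ± 850225 with Ctrl (SD, n = 3). Of 15138 genes tested, 15.6% passed the threshold of an adjusted p of 0.05 (edgeR quasi-likelihood test), 7.32% higher and 8.28% lower with Akk. Levels are given as CPM, the count scaled to library size. A floor of 3 counts corresponded to 0.181 to 0.200 CPM. T cell transcripts (Cd4, Cd3d, Cd3e, Cd3g, Trac, Cd5 and Lck) were abundant in every library. The summed level of these 7 genes was 3691 to 3851 CPM with Akk and 3140 to 3329 CPM with Ctrl, with 4 of the 7 higher. All of them but Cd4 are also expressed by CD8 T cells, so the sum does not separate CD4 from CD8 T cells. Markers of other cells also moved: 10 of 10 B cell markers rose (summed level 389 to 509 CPM with Akk and 182 to 201 CPM with Ctrl), as did 2 of 2 CD8 T cell markers (61.2 to 93.2 and 19.1 to 20.1 CPM), 4 of 6 natural killer cell markers (31.1 to 36.4 and 20.4 to 26.3 CPM), 1 of 5 tested neutrophil markers (71.9 to 162 and 12.7 to 51.2 CPM) and 1 of 8 monocyte and macrophage markers (518 to 565 and 422 to 510 CPM). Of these genes only the neutrophil marker Mpo was at 0 in any library. Proliferation genes were lower in 2 of 8 cases (519 to 595 and 751 to 782 CPM), and no erythroid marker passed (0 of 5, 219 to 412 and 398 to 944 CPM). The part of these cells in the results below was not tested. In RNA from bulk cells, more cells of a type and more RNA per cell cannot be told apart.

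Of the 38 genes 37 passed the filter on low counts, and 15 of these passed the test, 13 higher and 2 lower with Akk, against 15.6% of all genes tested. The lowest count of a tested member in any library was 23 (Fdps in Ctrl 3), so no member passed the filter through 1 group alone. The median log2 fold change, Akk over Ctrl, was 0.21 over the 37 genes and -0.01 over all genes tested. By role, the medians were 0.21 for 17 sterol synthesis enzymes, 0.20 for 5 regulators of SREBP, -0.07 for 7 genes of sterol efflux, uptake control and transport, and 0.38 for 8 tested enzymes of fatty acid synthesis. The calls numbered 4 of 17 (all higher), 3 of 5 (2 higher, 1 lower), 1 of 7 (lower) and 7 of 8 (all higher) in that order. The differences between these groups of genes are descriptions and were not tested. Since the genes were chosen with earlier results known, their shares beside those of all genes are descriptions too. In the fits with 1 library left out 6 to 13 members were higher and 1 to 4 lower, and 7 to 14 of the 15 called genes passed. The groups did not overlap for 22 of the 37 genes (18 higher, 4 lower), against 34.9% of all genes tested.

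**Figure D1:**
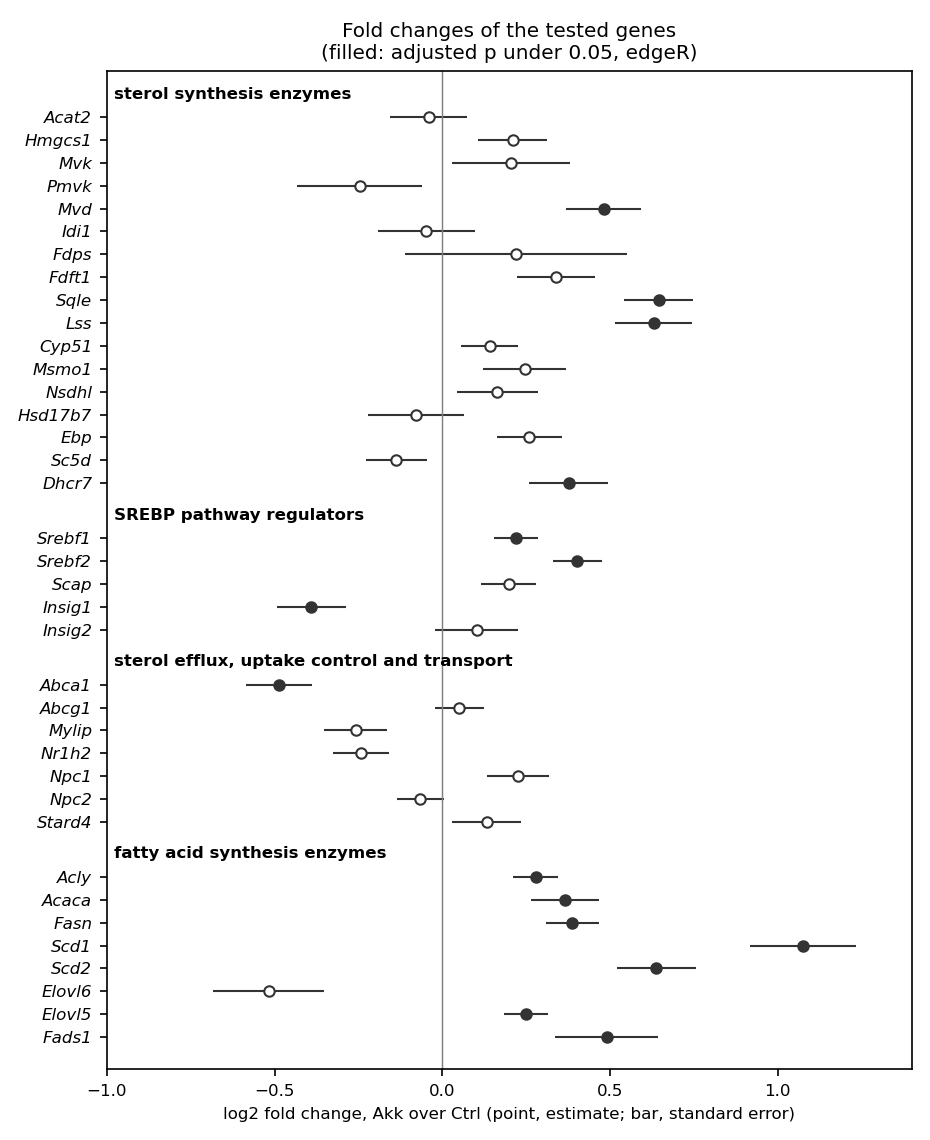
Log2 fold change (Akk over Ctrl, x axis) of the 37 tested genes, grouped by role, with the standard error as a bar and filled points for an adjusted p under 0.05. Points of fatty acid synthesis lie to the right of 0 except Elovl6 (-0.52), Scd1 has the highest value (1.07), and Insig1 (-0.39) and Abca1 (-0.49) are the filled points to the left.

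Fatty acid synthesis enzymes gave the highest share of calls and the largest rise among the members. Of these, 7 of 8 were called higher, against 7.32% of all genes tested. Without Akk 1, Akk 2 or Ctrl 1, 4 were called higher, and without Akk 3 there were 3. Without Ctrl 1 there was also 1 called lower, Elovl6. Scd1, the stearoyl-CoA desaturase that makes oleate from stearate, had 24.7, 27.1 and 27.3 CPM in Ctrl 1, 2 and 3 and 41.9, 56.5 and 68.3 CPM in Akk 1, 2 and 3. It rose 2.11-fold (log2 fold change 1.07 ± 0.16, SE, adjusted p = 0.00222, edgeR). The groups did not overlap, and the Akk libraries spread more widely than the Ctrl libraries (SD 13.2 against 1.48 CPM). Scd2, a second desaturase of the same family, had 65.4, 81.3 and 56.2 CPM with Ctrl and 111, 101 and 103 CPM with Akk, a rise of 0.64 ± 0.12 (log2, SE, adjusted p = 0.00539). Its spread was wider with Ctrl, where Ctrl 2 stood highest, yet below every Akk library. Over 623 aligned bases the transcripts of Scd1 and Scd2 are 95.5% identical, so reads could have been shared between them. How far this affected either value was not tested, and shared reads would also move both genes the same way.

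The enzymes that feed and build the fatty acid chain rose by smaller amounts. Acly, ATP citrate lyase, which releases acetyl-CoA from citrate in the cytosol, had 232, 224 and 244 CPM with Ctrl and 283, 274 and 293 CPM with Akk (log2 fold change 0.28 ± 0.07, SE, adjusted p = 0.0147). Acaca, the acetyl-CoA carboxylase of the committed step, had 27.2, 30.6 and 27.4 CPM with Ctrl and 35.4, 40.5 and 33.9 CPM with Akk (0.37 ± 0.10, adjusted p = 0.0286). Fasn, the fatty acid synthase, had 194, 214 and 232 CPM with Ctrl and 263, 290.4 and 284 CPM with Akk (0.39 ± 0.08, adjusted p = 0.00577). For all 3 genes every Akk library was above every Ctrl library. A near-identical copy of Acaca, Gm5182, held 14.8% to 20.2% of the counts of the pair. The call of Fasn held in each fit without 1 library. Acly lost its call without Akk 1 or Akk 3 (adjusted p up to 0.0823), and Acaca without any library other than Ctrl 2 (up to 0.153).

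Among the enzymes of elongation and polyunsaturated desaturation, Elovl5 and Fads1 were called higher, Elovl6 did not pass and Fads2 was not tested. Elovl5, which elongates polyunsaturated chains, had 145, 139.9 and 149 CPM with Ctrl and 171, 166 and 178 CPM with Akk, a rise of 0.25 ± 0.07 (log2, SE, adjusted p = 0.0223) that was not called without any Akk library or Ctrl 1 (up to 0.111). Elovl6, which elongates palmitate to stearate, had 25.1, 30.4 and 41.6 CPM with Ctrl and 24.6, 21.9 and 21.3 CPM with Akk and did not pass (-0.52 ± 0.17, adjusted p = 0.0606). It was the only tested enzyme of this group with a value below 0; its groups did not overlap, but Akk 1 lay just below Ctrl 1, and Ctrl 3 stood far above both other Ctrl libraries. Without Ctrl 1 the adjusted p of Elovl6 was 0.0113. Fads1, the delta-5 desaturase, had 13.0, 17.2 and 15.1 CPM with Ctrl and 17.5, 20.7 and 25.3 CPM with Akk (0.49 ± 0.15, adjusted p = 0.0477), and its call was lost without Akk 2, Akk 3, Ctrl 1 or Ctrl 3 (up to 0.218). Fads2, the delta-6 desaturase, was too low to be tested, with 5, 6 and 0 counts in Ctrl 1, 2 and 3 and 10, 12 and 11 counts in Akk 1, 2 and 3.

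**Figure D2:**
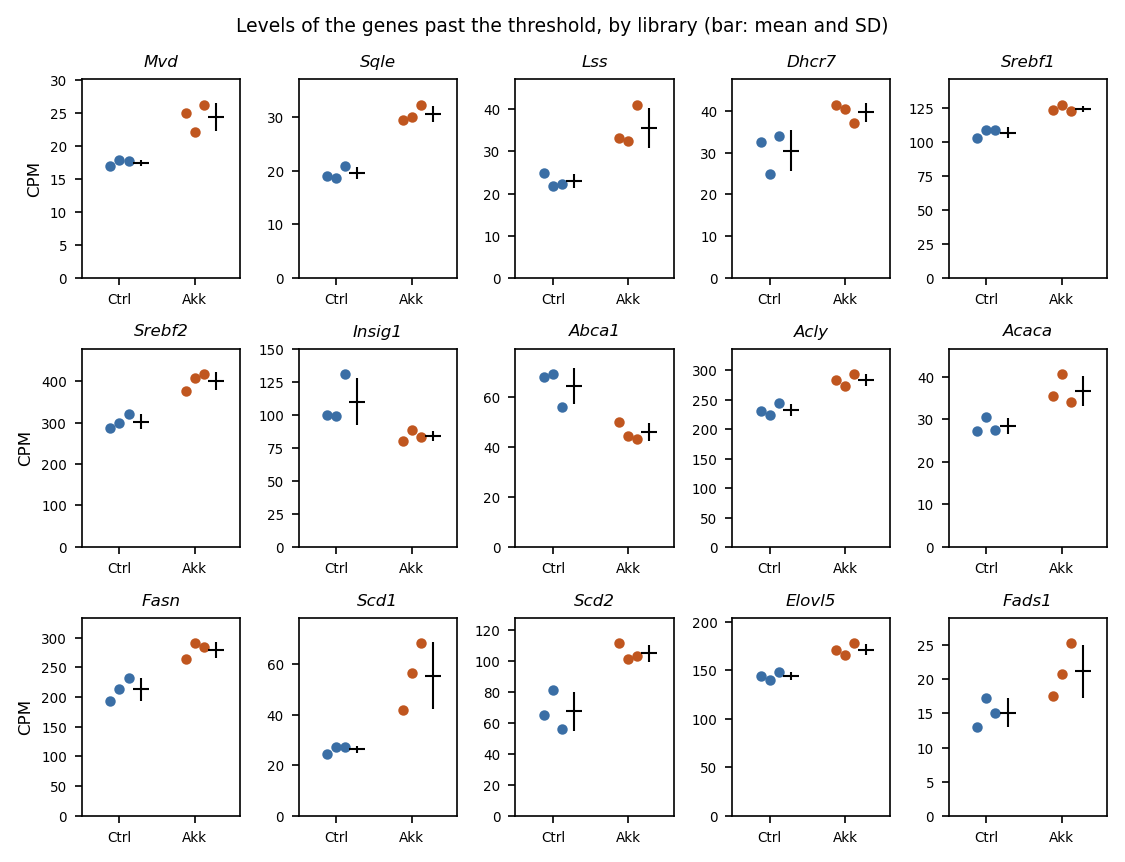
Level (CPM, y axis from 0) of the 15 genes past the threshold in each library, 1 panel per gene, with the mean and SD of 3 libraries beside the points. In every panel the 3 Akk points lie on 1 side of the 3 Ctrl points; Insig1 and Abca1 are lower and the other 13 higher with Akk.

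Among 17 sterol synthesis enzymes 4 rose and none fell, against 7.32% of all genes tested that were called higher. At an unadjusted p under 0.05 the counts were 6 and 0, and DESeq2 and limma-voom also called none lower. Sqle, squalene epoxidase, which adds the first oxygen of the sterol ring system, had 19.1, 18.7 and 20.9 CPM with Ctrl and 29.5, 30.0 and 32.2 CPM with Akk. It rose 1.56-fold (log2 fold change 0.65 ± 0.10, SE, adjusted p = 0.0014), with little spread in either group. Lss, lanosterol synthase, which closes the ring in the next step, had 24.8, 21.7 and 22.3 CPM with Ctrl and 33.2, 32.5 and 40.9 CPM with Akk and rose 1.55-fold (0.63 ± 0.11, adjusted p = 0.00302). Both calls held in every fit without 1 library. Mvd, which decarboxylates mevalonate diphosphate, had 16.9, 17.8 and 17.6 CPM with Ctrl and 24.9, 22.1 and 26.1 CPM with Akk (0.48 ± 0.11, adjusted p = 0.0125), and missed the threshold without Akk 3 (0.0663). Dhcr7, the reductase that makes cholesterol from its last precursor, had 32.6, 24.8 and 34.0 CPM with Ctrl and 41.3, 40.5 and 37.0 CPM with Akk (0.38 ± 0.12, adjusted p = 0.0466). Ctrl 2 stood lowest for Dhcr7, which was called in only 1 of 6 fits without 1 library, that without Ctrl 3 (adjusted p up to 0.144 in the others).

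The other 13 sterol enzymes did not pass, and their values ran from -0.25 to 0.34 (log2). Along the pathway, 1 of the 7 enzymes up to farnesyl diphosphate was called, with a median of 0.20. From squalene synthase on 3 of the 10 were called, with a median of 0.25, and of all genes tested 15.6% were called. Fdft1, squalene synthase, the branch point into sterols, had 17.6, 22.0 and 20.3 CPM with Ctrl and 24.9, 23.9 and 27.0 CPM with Akk (0.34 ± 0.12, adjusted p = 0.066). Ebp, the sterol isomerase, had 26.0, 27.6 and 24.1 CPM with Ctrl and 30.6, 30.6 and 31.9 CPM with Akk (0.26 ± 0.10, adjusted p = 0.0898). In both genes the groups did not overlap, which was so for 8 of the 17 enzymes (all 8 higher) and, in that direction, for 17.1% of all genes tested. Cyp51, the lanosterol demethylase, and Nsdhl, a dehydrogenase that acts in the removal of other methyl groups of the sterol, also had groups apart without passing the test, with values of 0.14 and 0.16. Fdft1 was called without Ctrl 2 (adjusted p = 0.034).

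At the start of the route Hmgcs1, HMG-CoA synthase, had 35.9, 33.2 and 32.1 CPM with Ctrl and 34.7, 39.1 and 43.2 CPM with Akk (0.21 ± 0.10, adjusted p = 0.185), with Akk 1 inside the Ctrl range. Mvk, mevalonate kinase (0.20), and Msmo1, a sterol methyl oxidase (0.25), also had positive values with overlapping groups. Acat2, the cytosolic thiolase (-0.04), Pmvk, phosphomevalonate kinase (-0.25), Idi1, the isopentenyl diphosphate isomerase (-0.05), Hsd17b7, a sterol ketoreductase (-0.08), and Sc5d, the sterol desaturase that acts just before Dhcr7 (-0.14), had negative values. Sc5d had 43.5, 46.2 and 39.7 CPM with Ctrl and 38.8, 41.8 and 37.1 CPM with Akk. Consecutive enzymes thus differed: Dhcr7 passed as a rise while Sc5d had a value below 0, a difference that was not itself tested. Fdps, farnesyl diphosphate synthase, had 23 to 38 counts in a library and a value of 0.22 ± 0.33 (adjusted p = 0.709). Near-identical pseudogenes held 36.1% to 62.7% of the counts of its family, so its level is uncertain.

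**Figure D3:**
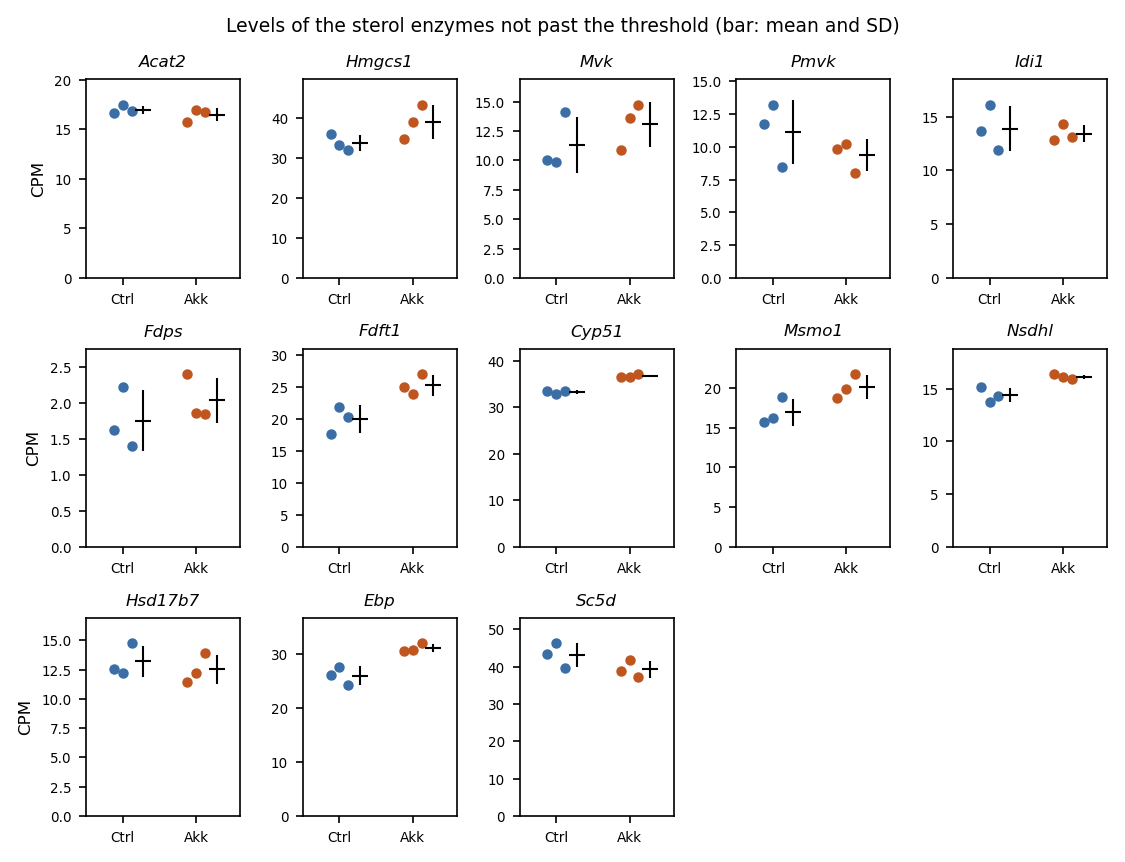
Level (CPM, y axis from 0) of the 13 sterol synthesis enzymes that did not pass the threshold, by library, with the mean and SD of 3 libraries. Fdft1, Cyp51, Nsdhl and Ebp have their 3 Akk points above the 3 Ctrl points, and the points of the other 9 genes overlap.

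Promoter sequences are shown for enzymes that passed and did not pass, and for the genes that fell, so that sequences of genes that moved differently can be compared. They come from RefSeq (build GRCm38.p6, not the build of the counts), which held 29 of the 38 genes; Sqle, Scd1, Scd2, Fdft1, Fdps, Fads1, Stard4, Abcg1 and Npc1 had no entry. Each is the 250 bases before a start site, 5′ to 3′ along the gene, and the capitals mark, on either strand, CCAAT (bound by NF-Y), GGGCGG (Sp1), CACGTG (an E-box) and TCACNCCAC (a consensus of the sterol regulatory element). Neighbouring or overlapping matches run together in capitals. The regions are chr10:76531355-76531604 (plus strand) for Lss, chr8:122443423-122443672 (minus strand) for Mvd, chr7:143829964-143830213 (plus strand) for Dhcr7, chr13:119690101-119690350 (plus strand) for Hmgcs1, chr9:42264301-42264550 (minus strand) for Sc5d, chr5:28071162-28071411 (plus strand) for Insig1, chr4:53159896-53160145 (minus strand) for Abca1 and chr11:120824548-120824797 (minus strand) for Fasn. Dhcr7 has 3 listed starts, of which the third is shown; CCAAT was found at that start only. This start and the sequences of Hmgcs1, Insig1, Abca1 and Fasn were chosen after the matches were seen. For Hmgcs1 and Sc5d the bases after the listed start were not found near the beginning of a transcript of the gene. Positions relative to their starts are therefore less certain.
Lss: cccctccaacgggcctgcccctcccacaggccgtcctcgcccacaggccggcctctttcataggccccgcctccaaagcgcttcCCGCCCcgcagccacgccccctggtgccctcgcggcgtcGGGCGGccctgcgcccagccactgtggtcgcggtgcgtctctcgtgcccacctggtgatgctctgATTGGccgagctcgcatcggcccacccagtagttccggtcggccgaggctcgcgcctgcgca
Mvd: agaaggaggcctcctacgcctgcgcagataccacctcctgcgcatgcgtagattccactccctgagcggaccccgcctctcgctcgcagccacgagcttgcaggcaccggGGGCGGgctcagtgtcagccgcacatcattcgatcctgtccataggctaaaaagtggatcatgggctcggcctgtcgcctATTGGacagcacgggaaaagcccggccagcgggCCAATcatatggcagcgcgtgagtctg
Dhcr7: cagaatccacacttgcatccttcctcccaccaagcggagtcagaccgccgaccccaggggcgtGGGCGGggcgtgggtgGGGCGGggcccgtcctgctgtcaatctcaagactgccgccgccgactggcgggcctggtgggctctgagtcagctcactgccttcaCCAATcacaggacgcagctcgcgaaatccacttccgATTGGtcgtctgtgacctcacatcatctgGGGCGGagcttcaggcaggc
Hmgcs1: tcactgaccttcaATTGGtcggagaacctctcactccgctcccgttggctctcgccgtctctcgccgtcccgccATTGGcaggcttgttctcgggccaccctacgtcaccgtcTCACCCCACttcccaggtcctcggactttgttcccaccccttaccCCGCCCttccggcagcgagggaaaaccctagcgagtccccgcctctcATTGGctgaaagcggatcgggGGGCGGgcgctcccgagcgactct
Sc5d: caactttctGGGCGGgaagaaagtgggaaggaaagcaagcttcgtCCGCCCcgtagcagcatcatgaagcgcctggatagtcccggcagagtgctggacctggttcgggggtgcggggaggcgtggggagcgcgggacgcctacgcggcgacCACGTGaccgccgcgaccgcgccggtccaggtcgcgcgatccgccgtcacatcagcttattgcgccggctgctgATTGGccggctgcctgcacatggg
Insig1: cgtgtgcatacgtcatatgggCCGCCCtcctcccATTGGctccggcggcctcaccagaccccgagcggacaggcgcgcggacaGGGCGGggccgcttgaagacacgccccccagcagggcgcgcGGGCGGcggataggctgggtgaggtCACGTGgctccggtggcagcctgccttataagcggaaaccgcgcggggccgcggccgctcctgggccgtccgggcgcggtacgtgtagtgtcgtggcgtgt
Abca1: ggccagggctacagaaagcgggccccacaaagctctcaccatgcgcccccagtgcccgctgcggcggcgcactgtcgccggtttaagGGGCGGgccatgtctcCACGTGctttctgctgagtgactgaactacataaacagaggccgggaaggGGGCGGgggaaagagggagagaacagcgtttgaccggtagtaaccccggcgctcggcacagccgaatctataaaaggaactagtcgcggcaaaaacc
Fasn: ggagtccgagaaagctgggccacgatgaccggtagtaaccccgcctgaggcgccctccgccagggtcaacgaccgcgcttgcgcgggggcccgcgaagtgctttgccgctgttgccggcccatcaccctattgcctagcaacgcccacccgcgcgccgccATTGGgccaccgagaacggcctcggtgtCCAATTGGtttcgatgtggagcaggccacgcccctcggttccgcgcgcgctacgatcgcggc

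The sterol enzymes shared CCAAT and GGGCGG in these windows whether or not they passed the test. Of 14 sterol enzymes with an entry, 13 had CCAAT and 13 had GGGCGG at a listed start, while 37.5% and 35.4% of the 27025 genes in the table had them. These 27025 genes were not limited to genes tested here, and the shares among tested genes were not computed. TCACNCCAC was found in 1 gene, Hmgcs1, 137 bases before the start, and in 1.2% of all genes; CACGTG was found in 3 of the 14 genes and in 6.9% of all genes. Of 6 fatty acid synthesis genes with an entry, 2 had CCAAT and 2 had GGGCGG. Among members with an entry, CCAAT was found in 8 of 11 that were called and in 13 of 17 that were tested and not called. The counts for these genes were 8 of 11 and 14 of 17 for GGGCGG, and 4 of 11 and 3 of 17 for CACGTG, which was found in genes called higher (Dhcr7 and Elovl5) and lower (Insig1 and Abca1). A match is a description of the sequence and not a measured binding site. Only exact matches to these patterns within 250 bases were sought, so a gene without a match may hold a variant or more distant site.

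Regulators of SREBP moved in both directions. Srebf2, which encodes the SREBP that mainly drives cholesterol synthesis, had 287, 298 and 321 CPM with Ctrl and 376, 407 and 416 CPM with Akk and rose 1.32-fold (log2 fold change 0.40 ± 0.07, SE, adjusted p = 0.00292). The lowest Akk library lay well above the highest Ctrl library, and the call held in all 6 fits without 1 library. Srebf1, which encodes the SREBP1 forms that mainly drive fatty acid synthesis, had 103, 109 and 109 CPM with Ctrl and 123, 127 and 123 CPM with Akk (0.22 ± 0.07, adjusted p = 0.0396). It was lost without any Akk library or Ctrl 1 (adjusted p up to 0.159). Scap, the escort protein, had 106, 95.3 and 118 CPM with Ctrl and 119, 127 and 119.6 CPM with Akk and did not pass (0.20 ± 0.08, adjusted p = 0.123), although without Ctrl 3 it did (0.0256).

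Insig1, the retention protein whose gene is itself a known SREBP target, went the other way. Its levels were 100.4, 99.3 and 131 CPM with Ctrl and 80.5, 88.5 and 83.3 CPM with Akk, a fall of 0.39 ± 0.10 (log2 fold change -0.39, SE, adjusted p = 0.0245), against 8.28% of all genes called lower. The groups did not overlap, Ctrl 3 stood highest, and the call was lost without any 1 of the Akk libraries (adjusted p up to 0.0977) and with limma-trend on FPKM (0.0818 on log2(FPKM + 1)). Insig2, the second retention protein, had 14.5, 14.2 and 13.8 CPM with Ctrl and 15.2, 14.3 and 16.1 CPM with Akk (0.10 ± 0.12, adjusted p = 0.631). Scaled for gene length, Insig1 was the more abundant of the pair in every library, at 35.5 against 4.05 FPKM, a level scaled for gene length and library size, with Ctrl and 27.3 against 4.38 FPKM with Akk.

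Genes of sterol efflux, uptake control and transport held 1 call among 7 (14.3%), near the 15.6% of all genes tested. Abca1, which exports cholesterol to lipid-poor apolipoprotein and is a liver X receptor target, had 68.1, 69.1 and 56.1 CPM with Ctrl and 50.1, 44.6 and 43.2 CPM with Akk. It fell by 0.49 ± 0.10 (log2 fold change -0.49, SE, adjusted p = 0.00551) without overlap. The call held in every edgeR fit without 1 library but not with limma-trend on FPKM (adjusted p = 0.0588 on log2(FPKM + 1)). Abcg1, the transporter that loads high-density lipoprotein, had 105, 122 and 111 CPM with Ctrl and 115, 118 and 117 CPM with Akk (0.05 ± 0.07, adjusted p = 0.695). The exporters thus had different values, but their difference was not tested.

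The remaining genes of this group did not pass. Nr1h2, which encodes the widely expressed liver X receptor beta, had 174, 166 and 208 CPM with Ctrl and 158, 156 and 149.9 CPM with Akk (-0.24 ± 0.08, adjusted p = 0.0697), with groups that did not overlap. Mylip had 109, 91.2 and 104 CPM with Ctrl and 80.5, 77.4 and 95.8 CPM with Akk (-0.26 ± 0.09, adjusted p = 0.0807), with Akk 3 inside the Ctrl range. Without Ctrl 2 both were called lower (adjusted p = 0.02 for Nr1h2), and Mylip also without Akk 3. Npc1 and Npc2, which together carry cholesterol out of lysosomes, had values of 0.23 ± 0.09 (adjusted p = 0.116) and -0.07 ± 0.07 (adjusted p = 0.583). Npc1 was called higher without Ctrl 3 (adjusted p = 0.0149), the library in which its level, 64.8 CPM, reached that of the Akk libraries. Stard4, a cytosolic sterol carrier, had a value of 0.13 ± 0.10 (adjusted p = 0.433).

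**Figure D4:**
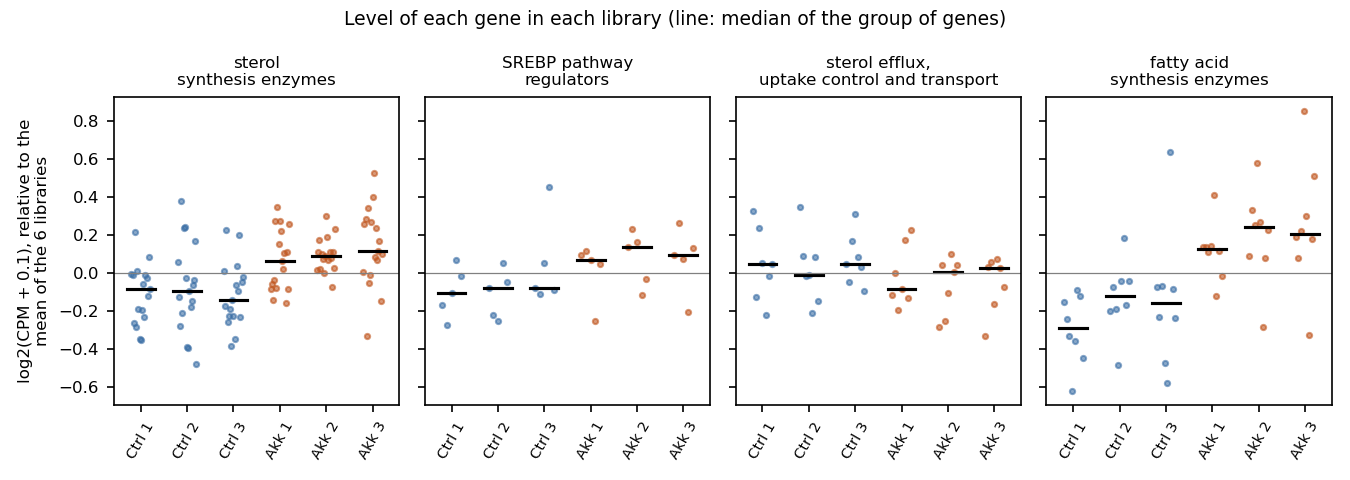
Level of each tested gene in each library relative to its mean over the 6 libraries (log2 of CPM + 0.1, y axis), in 4 panels by role, with a line at the median of the genes. The medians of sterol enzymes, regulators and fatty acid enzymes are below 0 in all 3 Ctrl libraries and above 0 in all 3 Akk libraries (0.13 to 0.24 for fatty acid enzymes), while those of efflux and transport genes lie between -0.085 and 0.0479.

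Per gene length, the members covered a wide range. Npc2 had the highest mean level in both groups (64.7 FPKM with Ctrl and 62.3 FPKM with Akk). With Ctrl it was followed by Nr1h2 (54.2 FPKM), Acly (44.0), Srebf2 (41.9) and Elovl5 (40.8), of which Acly and Srebf2, and Srebf2 and Elovl5, overlapped in range over the libraries. With Akk the order was Srebf2 (55.8 FPKM), Acly (53.8), Elovl5 (48.8) and Nr1h2 (46.2), and the ranges of Npc2 and Srebf2, and of Srebf2 and Acly, overlapped. The highest sterol enzymes over the 6 libraries were Ebp (12.3 FPKM) and Mvd (11.3 FPKM), below all of these. Sqle and Lss, whose rises were the largest of the sterol enzymes, had lower means over the 6 libraries of 4.52 and 2.71 FPKM. Fdps and Fads2 were last, at 0.448 and 0.317 FPKM.

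Other genes of these pathways were counted in 5 lists. Of 56 tested genes 7 were higher and 1 lower, 14.3% against 15.6% of all genes. Lbr, a nuclear membrane protein with sterol reductase activity, rose by 0.27 ± 0.07 (log2, SE, adjusted p = 0.0175, edgeR), but not without Akk 1 or Akk 3 (up to 0.0956).

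In the branch from farnesyl diphosphate to prenyl groups, ubiquinone and dolichol, none of 10 genes passed (median -0.0043, edgeR), with 1 higher and 2 lower at an unadjusted p under 0.05. None of 8 genes of SREBP cleavage and sterol-regulated degradation passed (median 0.05, edgeR), and 0 had an unadjusted p under 0.05. DESeq2 and limma-voom called 0 genes of either list. Of 14 liver X receptor partners and genes of sterol esterification and transport 4 rose, against 7.32% called higher of all genes tested. Arl4c, a small GTPase known as a liver X receptor target, had 396, 407 and 407 CPM with Ctrl and 569, 606 and 596 CPM with Akk (0.55 ± 0.07, SE, adjusted p = 0.000223), opposite in direction to Abca1. Gramd1a, which moves cholesterol from the plasma membrane to the endoplasmic reticulum, rose by 0.42 ± 0.09 (adjusted p = 0.00818). Soat1, which esterifies cholesterol for storage, and Lipa, the lysosomal acid lipase, rose by 0.29 and 0.25 (adjusted p = 0.0276 and 0.0416), and each was called in only 1 of 6 fits without 1 library: Soat1 without Ctrl 3 and Lipa without Ctrl 2. Of 16 tested genes of further fatty acid synthesis 1 passed (6.2%, against 15.6% of all genes tested). This gene, Hacd3, a dehydratase of chain elongation, fell by 0.37 ± 0.10 (log2 fold change -0.37, adjusted p = 0.0236, edgeR). Its call was lost without Akk 2, Akk 3 or Ctrl 1 (up to 0.118).

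**Figure D5:**
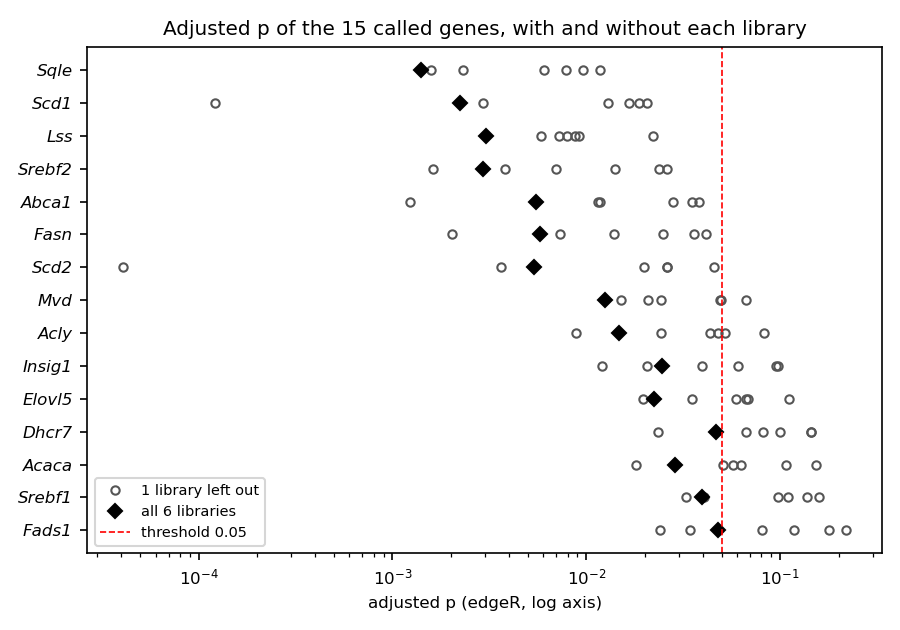
Adjusted p (edgeR, log axis) of the 15 called genes with all 6 libraries (diamonds) and with each library left out (circles), beside the threshold of 0.05. All circles of Sqle, Scd1, Lss, Srebf2, Abca1, Fasn and Scd2 lie below the threshold, and at least 1 circle of the other 8 genes lies above it.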

How the data were processed

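RNA-seq counts per gene of 6 libraries were analysed. The authors deposited raw counts as whole numbers and, in a second table, FPKM rounded to 2 decimals. In 5248 genes with high counts the deposited FPKM followed the counts and 1 length per gene within 0.514%. Per the submitters' processing notes the build was GRCm39; no source used here names the aligner, the counter, the annotation or whether strand was used. Libraries were grouped by title, and the numbers in the titles were not used as pairs, since the correlations of the deviations of same-numbered libraries (r from 0.0303 to 0.0846) were all under 0.1, the level set for treating them as pairs.

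Genes were filtered with filterByExpr (minimum count 10, minimum total 15), scaled with TMM factors and tested in edgeR 4.0.16 (R 4.3.3) by its robust quasi-likelihood fit (two-sided). P-values were adjusted by Benjamini and Hochberg's method over the 15138 tested genes. The test returns no standard error, so the SE given is the absolute log2 fold change divided by the square root of the F statistic. The procedure was run on simulated counts, with a required recovery set only for changes larger than that of any member. Smaller changes were simulated as well, but their recovery is not reported here. How well changes of the members' size are found is therefore not shown. Replicate pairs differed by 4.25 to 5.77 times the sampling variance with Akk and by 13.2 to 17.8 times with Ctrl. Each library was therefore counted as 1 replicate. The series text calls them biological replicates without naming the animals, so p-values measure only the spread between these libraries.

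Alternatives were DESeq2 1.42.0, limma-voom and limma-trend (limma 3.58.1) on log2(FPKM + 1) and log2(FPKM + 0.1), DESeq-style size factors in edgeR, library totals, other filters, the replicate number as a block, and leaving out each library in turn. The genes named were all members and, from each list of other pathway genes, up to 4 past the threshold with the smallest p; some genes of the list of further sterol synthesis and uptake are not reported here. Promoters were chosen as the called sterol enzymes with an entry and the enzyme not called with the highest mean count (Sc5d, not scaled for length); Hmgcs1, Insig1, Abca1, Fasn and the third start of Dhcr7 were added after the matches were seen. The members and lists were chosen with earlier results of these data known. Near-identical transcripts were sought with blastn in GENCODE M21 (at least 95% identity over 300 bases).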

Additional observations from a re-analysis of the deposited data

How the results depend on the processing

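Leaving out 1 library gave 1142 to 2560 called genes of all tested (519 to 1287 higher and 623 to 1413 lower), 2 to 4 sterol enzymes higher, 1 to 3 regulators higher and 0 to 1 lower, 0 to 1 efflux and transport genes higher and 1 to 3 lower, 3 to 7 fatty acid enzymes higher and 0 to 1 lower, and 4 to 8 other pathway genes. All genes called fell from 2361 to 1402, 1142, 1173 and 1473 without Akk 1, Akk 2, Akk 3 and Ctrl 1; fewest fatty acid enzymes were called without Akk 3. On log2(FPKM + 0.1) limma-trend called 1565 genes (821 lower). On either FPKM scale it called 1 regulator higher and 0 lower, 0 efflux genes lower and 5 other pathway genes; calls of Dhcr7, Srebf1, Insig1, Abca1, Acaca and Fads1 were lost there (adjusted p up to 0.167). Limma-voom did not call Dhcr7 or Fads1. With no filter on low counts 3 efflux and transport genes were lower (Abca1, Mylip and Nr1h2), and Elovl6 was called lower there and with DESeq2 (1 fatty acid enzyme lower in each). With the replicate block 2 efflux and transport genes were lower (Abca1 and Mylip, adjusted p = 0.0401 for Mylip), 1205 genes were higher and 1333 lower in all; every library correlated best with its own number (r from 0.0303 to 0.0846). The descriptions name a different cell marker for each number in both groups, and whether the numbers pair the libraries is not settled. Signs turned for Idi1 without Ctrl 2 (log2 fold changes over these fits from -0.1456 to 0.0683), Hsd17b7 without Ctrl 3 (-0.1555 to 0.0108) and Abcg1 without Ctrl 1 (-0.0068 to 0.1119). All 15 calls held with DESeq2, size factors, library totals, both filters and the block. The smallest log2 change among the called members was 0.22 (Srebf1).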

Other observations

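Near-identical copies hold some of the reads that members could have received. Of 38 genes 7 had a transcript of another gene at least 95% identical over 300 bases or more. For Fdps, which had 23 to 38 counts in a library, the processed pseudogene Gm3571 is 98.9% identical over 1062 bases and had 17, 21 and 10 counts in Ctrl 1, 2 and 3 and 37, 30 and 42 counts in Akk 1, 2 and 3. Gm3571 itself was called higher (log2 fold change 1.24, adjusted p = 0.0435, edgeR), a call lost in all fits without 1 library except that without Ctrl 2 (adjusted p up to 0.156) and with a replicate block (0.0501). Counted together, the 5 copies of Fdps held 36.1% to 62.7% of the counts of the family, whose summed level was 3.44, 4.46 and 2.20 CPM in Ctrl 1, 2 and 3 and 5.05, 4.33 and 4.96 CPM in Akk 1, 2 and 3. These summed levels overlap between the groups. No source used here says how the authors counted reads that fit several genes, so the level of Fdps is uncertain.

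For Acaca the copy Gm5182, 99.2% identical over 6118 bases, had 81 to 88 counts with Ctrl and 105 to 130 with Akk, 14.8% to 20.2% of the counts of the pair. Its value was 0.50 (adjusted p = 0.101), in the direction of Acaca. The other copies were Acat3 for Acat2 (11 to 18 counts in a library), Scd1 for Scd2, and for Elovl6, Fdft1 and Idi1 genes with at most 5 counts in any library.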
